A study of Mus musculus with 12 samples.

Results

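Clec4e, Clec4d, Clec7a, Clec12a, Cd69, Cd33 and Siglecf encode surface receptors of the C-type lectin and sialic acid-binding lectin (Siglec) families. They were examined as 1 group, and every probe set that the platform annotation gives to these 7 symbols was taken. The genes were chosen by the differences between GATA1 and vector cells on these same arrays at 18 h and 42 h, so those differences are given as a description without a p-value. Of the 7 genes, 6 had a probe set, with 7 probe sets in all, out of 18193 genes with a probe set of 1 symbol. Clec4e, Clec4d, Cd69 and Siglecf passed the filter on low values and belong to the 10759 genes tested. Clec7a and Cd33 lay below it, and Clec12a was not analysed here because the annotation table used lists no probe set for it.

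The arrays come from the Gata1-negative line G1ME, which resembles bipotent progenitors of mouse megakaryocytes and red cells, so all 4 groups share the lack of Gata1. GATA1 cells carried the MIGR1-GFP retroviral vector with a GATA1 insert, and vector cells carried MIGR1-GFP alone. GFP-positive cells were sorted 18 h or 42 h after transduction, giving GATA1 18 h, vector 18 h, GATA1 42 h and vector 42 h cells with 3 arrays each, lettered A, B and C. The labels call the triplicates biological. A single line was used, and the sort selects cells by GFP and not by their GATA1 level.

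C-type lectin receptors of myeloid cells bind glycans, glycolipids and products of dying cells. Mincle (Clec4e), MCL (Clec4d) and Dectin-1 (Clec7a) are activating receptors that reach the kinase Syk, Mincle and MCL through the adaptor FcRγ (Fcer1g) and Dectin-1 through a motif of its own tail. MICL (Clec12a) and most Siglecs instead carry inhibitory tyrosine motifs that recruit the phosphatases SHP-1 (Ptpn6) and SHP-2 (Ptpn11). CD69 is a C-type lectin-like protein of recently activated leukocytes that holds back the sphingosine-1-phosphate receptor S1PR1. Siglec-F marks mouse eosinophils and alveolar macrophages.

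Promoter windows are shown for Siglecf, whose difference between GATA1 and vector cells had opposite signs at 18 h and 42 h, and for the adjacent genes Clec4e and Clec4d, which were lower in GATA1 cells by very different amounts. The windows are the 250 bases before and 50 after a RefSeq start, on build GRCm38.p6 and 5′ to 3′ on the gene's strand. Capitals mark the words searched on both strands, of which the GATA words were AGATAA along with AGATAG and likewise TGATAA along with TGATAG. The PU.1-type word was GAGGAA, which appears as TTCCTC when it lies on the other strand. No word of one kind overlaps a word of the other in these windows.
Siglecf (chr7:43351091-43351390, plus strand): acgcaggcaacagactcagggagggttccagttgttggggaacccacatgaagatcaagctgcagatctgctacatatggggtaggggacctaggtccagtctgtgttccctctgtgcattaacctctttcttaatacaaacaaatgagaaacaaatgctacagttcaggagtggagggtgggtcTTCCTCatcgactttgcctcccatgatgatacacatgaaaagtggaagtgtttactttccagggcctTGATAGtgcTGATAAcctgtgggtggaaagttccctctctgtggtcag
Clec4e (chr6:123289822-123290121, minus strand): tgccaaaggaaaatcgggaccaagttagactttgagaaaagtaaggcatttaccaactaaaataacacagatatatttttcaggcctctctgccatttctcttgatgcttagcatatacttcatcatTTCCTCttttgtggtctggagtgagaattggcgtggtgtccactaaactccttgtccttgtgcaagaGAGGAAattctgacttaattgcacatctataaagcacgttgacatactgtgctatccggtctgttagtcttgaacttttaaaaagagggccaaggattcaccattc
Clec4d (chr6:123261857-123262156, plus strand): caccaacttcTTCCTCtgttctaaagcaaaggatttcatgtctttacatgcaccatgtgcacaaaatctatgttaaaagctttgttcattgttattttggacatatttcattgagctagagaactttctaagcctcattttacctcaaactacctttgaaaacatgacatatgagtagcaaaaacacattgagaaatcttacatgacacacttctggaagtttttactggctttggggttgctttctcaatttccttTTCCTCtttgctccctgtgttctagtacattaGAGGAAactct
The Siglecf window held 2 GATA words, TGATAG beginning 3 bases and TGATAA 12 bases after the start, and 1 PU.1-type word. Clec4e and Clec4d held 0 GATA words, with 2 and 3 PU.1-type words. The windows of Clec12a, Clec7a and Cd33 also held 0 GATA words, with 2, 1 and 1 PU.1-type words. Cd69 had no window among the promoters used, so its promoter was not searched. Among all 32851 RefSeq promoters of the same length, 29.8% held a GATA word, 28.3% a PU.1-type word and 8.48% both. A matching word is not evidence of binding.

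Levels are deposited linear intensities, and differences are on the log2(intensity + 16) scale, GATA1 minus vector or 42 h minus 18 h, with the SE of a limma fit over all 12 arrays. A gene passed the test where its Benjamini-Hochberg adjusted p over all genes tested was under 0.05. Array medians lay between 8.05 and 8.29. The single Gata1 probe set was lower in arrays labelled GATA1, at 2335 ± 91.0 against 3002 ± 284 in vector cells at 18 h and 2044 ± 355 against 3137 ± 116 at 42 h (SD, n = 3 each). The position of its probes relative to the insert was not checked here, so this level tells nothing about the labels. In vector cells this probe set lay far above the array medians, in a line described as Gata1-negative. The source of that signal was not tested. The embryonic globin Hbb-y read 1063 ± 510.3 in GATA1 cells and 58.3 ± 53.9 in vector cells at 18 h, and 13812 ± 4528 in GATA1 cells and 41.7 ± 13.8 in vector cells at 42 h. GATA1 cells are therefore the arrays labelled so.

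Among the activating receptors, Clec4e was low in GATA1 cells at both times. Its brighter probe set (1420330_at) read 22.2, 47.0 and 68.7 on the GATA1 18 h arrays A, B and C, against 229.6, 249 and 206 on the vector 18 h arrays. At 42 h it read 5.78, 4.92 and 6.38 in GATA1 cells, against 291, 251 and 298 in vector cells. The groups did not overlap at either time, and all 3 GATA1 42 h arrays were below their own array's median. The difference was -2.05 ± 0.23 at 18 h and -3.77 ± 0.23 at 42 h (SE). In linear terms vector cells averaged 4.96 times the intensity of GATA1 cells at 18 h. At 42 h, with GATA1 cells set to their array medians, vector cells were at least 34.1-fold higher. Array A of GATA1 18 h was the lowest of its group, and the letter-matched differences at 18 h were -2.68, -2.07 and -1.39 for A, B and C.

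The second Clec4e probe set (1420331_at) was dim. It read 6.46, 6.30 and 6.43 in GATA1 cells and 21.0, 8.30 and 10.8 in vector cells at 18 h, and 6.41, 6.20 and 6.09 in GATA1 cells and 12.8, 11.3 and 18.6 in vector cells at 42 h. It was above the array median on all 6 vector arrays and on 0 of the 6 GATA1 arrays, with differences of -0.37 ± 0.14 at 18 h and -0.44 ± 0.14 at 42 h. Both probe sets were thus lower in every GATA1 array than in every vector array of the same time, but the step between 18 h and 42 h in GATA1 cells could be read only from the brighter one.

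Clec4d, the gene next to Clec4e, was the brightest of the group's probe sets. Its probe set (1420804_s_at) read 1732, 1695 and 1977 in GATA1 18 h cells, against 1944, 1698 and 2193 in vector 18 h cells. These ranges overlapped, and the difference was -0.11 ± 0.13. At 42 h it read 1453, 1343 and 1143 in GATA1 cells, against 2240.0, 1926 and 2561 in vector cells, without overlap. The difference at 42 h was -0.76 ± 0.13, and GATA1 cells averaged 58.6% of the vector mean.

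Clec7a (1420699_at) read between 4.55 and 4.67 on the 12 arrays, below the median of every array. GATA1 and vector cells could not be set apart for this receptor at such values.

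Cd69 was lower in GATA1 cells at both times. Its probe set (1428735_at) read 179, 156 and 226 in GATA1 18 h cells, against 623, 424 and 483 in vector 18 h cells. At 42 h it read 81.8, 90.6 and 64.8 in GATA1 cells, against 369, 487 and 470.0 in vector cells. The groups did not overlap at either time. The differences were -1.37 ± 0.18 at 18 h and -2.27 ± 0.18 at 42 h, so GATA1 cells averaged 36.6% of the vector level at 18 h and 17.9% at 42 h.

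Of the 2 Siglecs, Siglecf was above the filter on low values and Cd33 was not. Siglecf (1424975_at) read 1158, 758 and 845 in GATA1 18 h cells, against 575, 420.5 and 471 in vector 18 h cells. At 42 h it read 144, 159.6 and 166 in GATA1 cells, against 331, 242 and 267 in vector cells. The order of the groups was thus opposite at the 2 times, with GATA1 cells above every vector array at 18 h and under every vector array at 42 h. The difference was 0.88 ± 0.17 at 18 h and -0.77 ± 0.17 at 42 h. It had the same sign for all 3 letters at each time, at 0.99, 0.83 and 0.82 at 18 h and -1.12, -0.56 and -0.64 at 42 h for A, B and C. The highest of the 12 Siglecf values was on GATA1 18 h array A. Cd33 (1450513_at) read between 3.76 and 3.84 on the 12 arrays, below the median of every array. Even so its GATA1 18 h arrays (3.76 to 3.79) did not overlap its vector 18 h arrays (3.80 to 3.84). Lack of overlap between 3 and 3 arrays is therefore a description only.

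**Figure D1:**
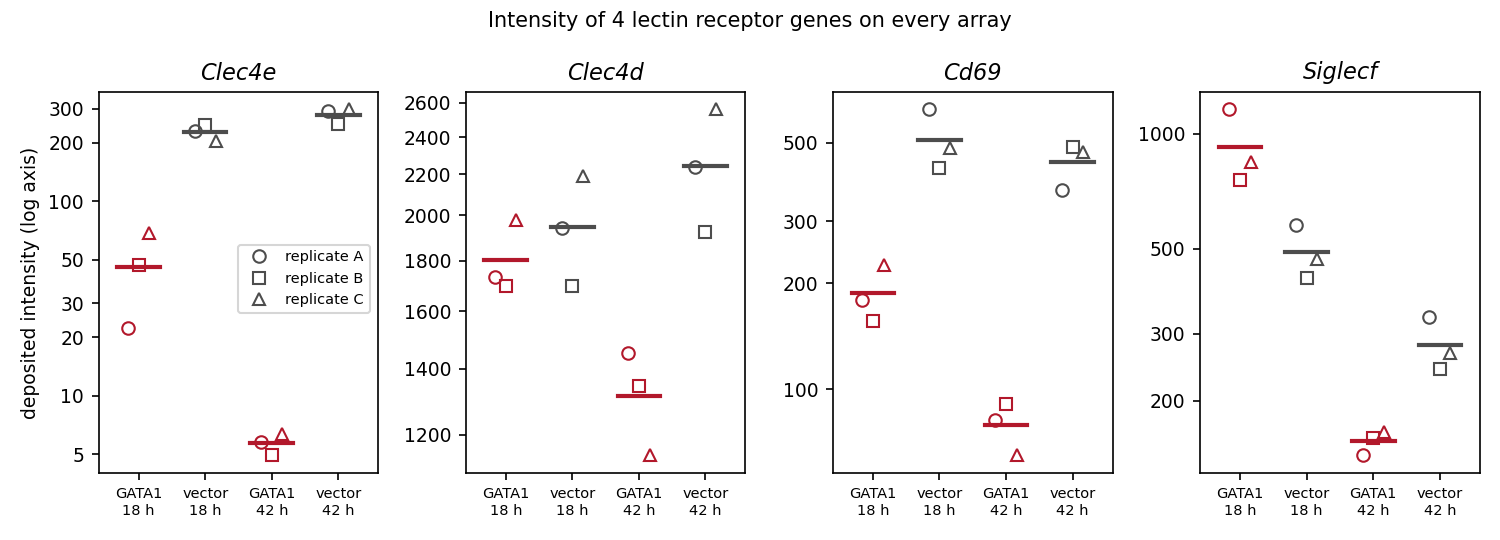
Deposited intensity (log axis, a different range in each panel) of Clec4e, Clec4d, Cd69 and Siglecf on every array, with GATA1 cells in red, vector cells in grey, a symbol for each replicate letter and a bar for the group mean. Siglecf lies above the vector arrays in GATA1 cells at 18 h and under them at 42 h, and Clec4e averages 5.69 in GATA1 42 h cells.

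**Figure D2:**
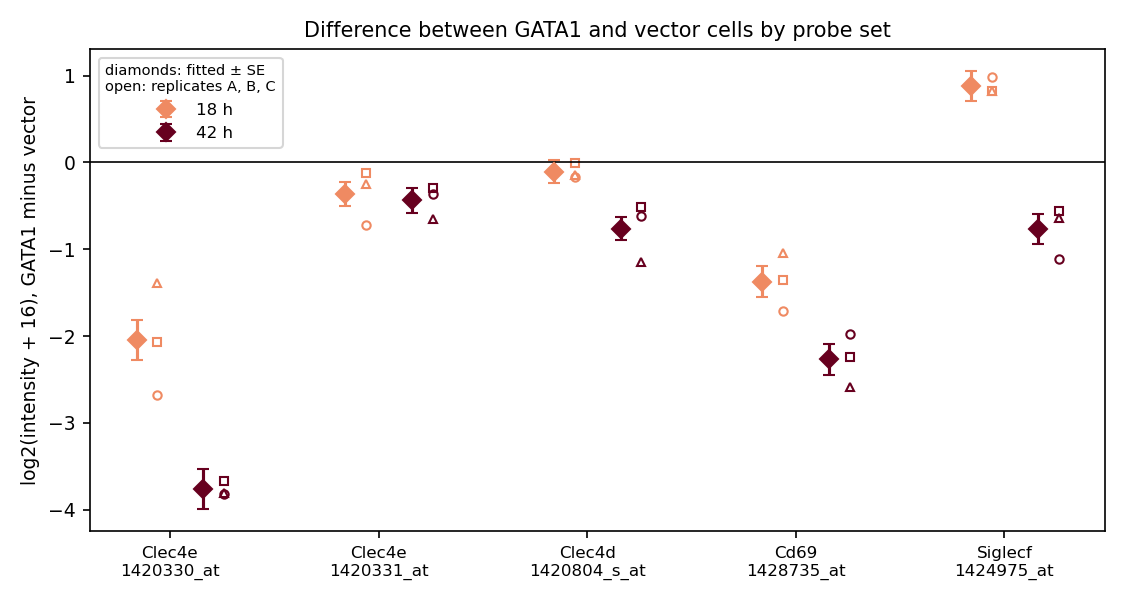
Difference between GATA1 and vector cells in log2(intensity + 16) for 5 probe sets, at 18 h (light) and 42 h (dark). Diamonds are fitted values ± SE and open symbols the letter-matched differences, and only Siglecf at 18 h lies above 0.

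At 18 h, 3 of the 4 tested genes were past the threshold, 1 higher and 2 lower, where 1.85% of all genes were called. At 42 h all 4 were past it, each lower, where 20.9% of all genes were called. Nothing follows from these counts, since the genes were chosen with both differences known. In a fit of the 6 arrays of 18 h alone, 0 of the 4 were past the threshold at 18 h, and the range over the other settings was 2 to 3. The count of 4 at 42 h was the same in every setting that kept the brightest probe sets. A fit with the second Clec4e probe set in place of the brighter one was not included in these counts. The difference between the 42 h and 18 h effects was -1.72 ± 0.33 for Clec4e, -1.65 ± 0.24 for Siglecf, -0.90 ± 0.25 for Cd69 and -0.66 ± 0.19 for Clec4d. These values were used in choosing the genes and carry no test. Over all genes 4.66% were called for this difference.

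Time alone was examined in vector cells, where the question is what changes between 18 h and 42 h without GATA1. These arrays also enter the differences above, so the test is not independent of the choice of genes. None of the 4 tested genes passed it in limma (0 of 4), and 1 of the 4 had an unadjusted p under 0.05. Of all 10759 genes 0.0186%, 2 in number, were called, and 676 had an unadjusted p under 0.05. Siglecf read 331, 242 and 267 in vector 42 h cells and 575, 420.5 and 471 in vector 18 h cells, without overlap. Its difference was -0.77 ± 0.17, lower in 3 of 3 letters, with a limma adjusted p of 0.292 and an unadjusted p of 0.00141. With the replicate letter as a block the limma adjusted p was 0.0691. Clec4e differed by 0.28 ± 0.23 and its arrays did not overlap either (adjusted p in limma = 0.996). Clec4d differed by 0.20 ± 0.13 (adjusted p in limma = 0.964) and Cd69 by -0.19 ± 0.18 (adjusted p in limma = 0.996), both with overlapping arrays. The Cd69 difference was 0.08 without the arrays lettered A. In 6 lists of related lectin, signalling, sialic acid and transcription factor genes, 0 passed over time in vector cells, and 7 of 73 had an unadjusted p under 0.05.

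In GATA1 cells all 4 genes were lower at 42 h than at 18 h, and no 42 h array overlapped the 18 h arrays. The share of all genes whose arrays did not overlap was not counted, here or in the other comparisons. The difference was -2.42 ± 0.17 for Siglecf, -1.44 ± 0.23 for Clec4e, -1.09 ± 0.18 for Cd69 and -0.45 ± 0.13 for Clec4d. These arrays were used in choosing the genes, so the differences carry no test, and nothing is read from the 14.6% of all genes called. The mean of Siglecf at 18 h was 5.88 times that at 42 h in GATA1 cells and 1.74 times in vector cells. On the log2(intensity + 16) scale Siglecf had the largest difference over time of the 4 genes in either cell population. As a ratio of mean intensities Clec4e had the larger one in GATA1 cells, at 8.08 times, with its 42 h values below the array medians.

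Across the 12 arrays Clec4e and Cd69 had the most similar profiles (Pearson r = 0.963 on the log2 scale). Clec4d followed Cd69 with r = 0.842 and Clec4e with r = 0.841. Siglecf stood apart, with r between 0.242 and 0.397 to the other 3. These correlations describe 12 arrays in 4 groups, and the points share arrays and group means. Among all other genes tested, the nearest profiles to Clec4e were those of Cytip (r = 0.992), Tespa1 (0.984) and Ifnar1 (0.982), where r is Pearson's over the same 12 arrays. For Cd69 they were Gimap1 (0.980), Tmem273 (0.979) and Gimap9 (0.978), for Clec4d Ptpn18 (0.949), B9d2 (0.928) and Card19 (0.924), and for Siglecf Parm1 (0.947), 1700006J14Rik (0.943) and Hgfac (0.941). Parm1 averaged 289 in GATA1 and 171 in vector cells at 18 h, and 66.6 in GATA1 and 92.2 in vector cells at 42 h.

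In RefSeq order Clec4d and Clec4e are adjacent on chromosome 6, and Cd69, Clec12a and Clec7a lie in another cluster on the same chromosome. Of 13 tested neighbours on chromosome 6, 0 passed in limma at 18 h and 0 at 42 h. Of all genes 1.85% and 20.9% did. An unadjusted p under 0.05 was found for 2 and 0 of the 13, and for 1056 and 3415 of all 10759 genes. Of these 13, 6 were under a mean intensity of 16 in every group. Clec1b, the platelet receptor CLEC-2, was bright and lies between Cd69 and Clec7a. It averaged 1184 ± 6.60 in GATA1 and 1471 ± 111 in vector cells at 18 h, and 1327 ± 157 in GATA1 and 1371 ± 267 in vector cells at 42 h (SD, n = 3 each), with differences of -0.31 ± 0.14 and -0.03 ± 0.14. On chromosome 7, 0 of 8 tested neighbours of Siglecf and Cd33 passed in limma at 18 h. There 2 had an unadjusted p under 0.05, where 1056 of all 10759 genes did. At 42 h 2 rose in GATA1 cells, Etfb by 0.26 ± 0.06 and Ctu1 by 0.36 ± 0.09, and 1 fell, the protease gene Klk8, with -0.97 ± 0.12 (limma adjusted p 0.00989, 0.0192 and 0.000406), 3 of 8 against the 20.9% of all genes. The calls of Etfb and Ctu1 were lost in 2 and 3 of 20 other settings. Neither of the nearest tested neighbours of Siglecf passed at either time, Zfp715 with differences of -0.06 ± 0.10 at 18 h and -0.01 ± 0.10 at 42 h and Nkg7 with 0.63 ± 0.22 and 0.59 ± 0.22.

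**Figure D3:**
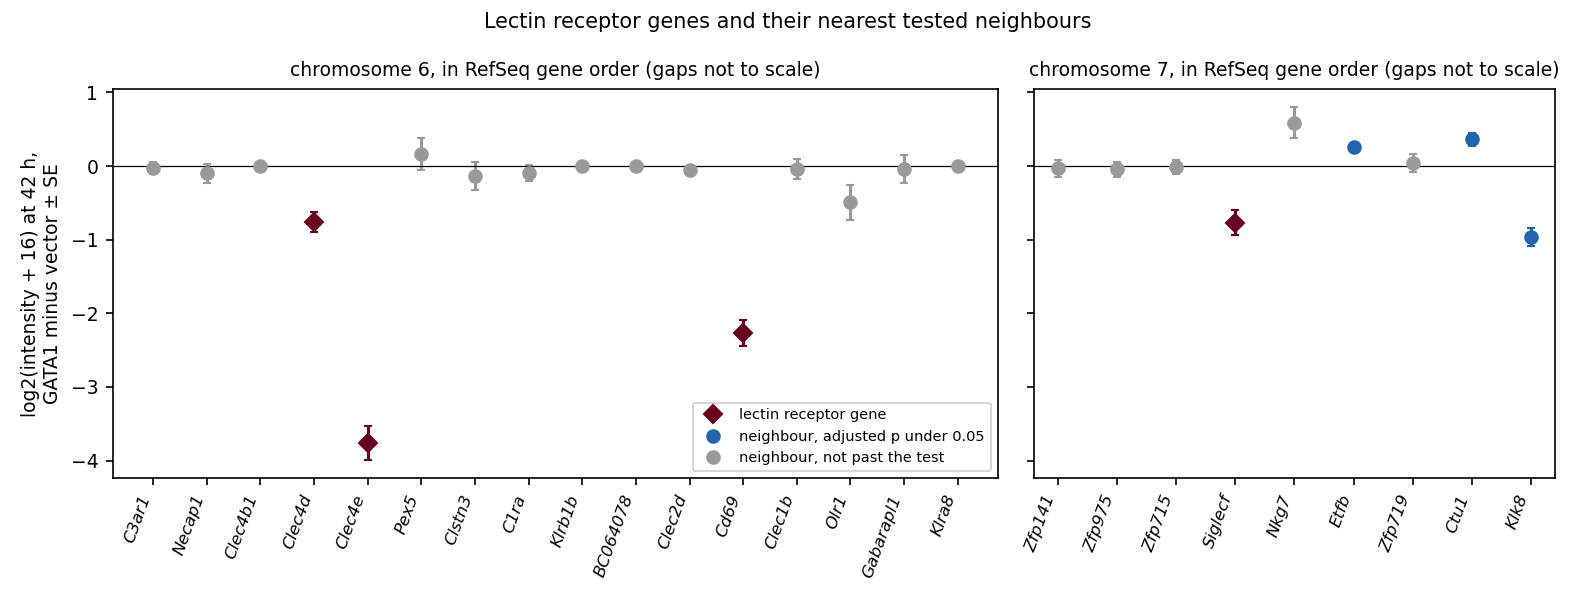
Difference between GATA1 and vector cells at 42 h in log2(intensity + 16) ± SE for the lectin receptor genes (diamonds) and their nearest tested neighbours (circles), in RefSeq gene order. Of the 13 neighbours on chromosome 6, 0 passed the test, and 3 of 8 on chromosome 7 did (blue), where 20.9% of all genes passed.

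Other genes with a C-type lectin domain were mostly dim. This list and the lists that follow were chosen with earlier results of these data known. Their counts and medians beside those of all genes are therefore a description. Of 36 listed, 32 had a probe set and 12 were tested, of which 6 had a mean intensity under 16 in every group. At 18 h 0 rose and 1 fell, against the 1.85% of all genes called, and the median difference was -0.17 over the list and -0.01 over all genes. At 42 h 1 rose and 4 fell, against 20.9% of all genes called, with a median of -0.08 over the list and 0.00 over all genes. Cd93, a lectin-like receptor of progenitors and endothelium, averaged 207 ± 53.3 in GATA1 cells and 396 ± 51.9 in vector cells at 18 h, and fell by 0.90 ± 0.17 (limma adjusted p = 0.0347, lost in 11 of 20 other settings). At 42 h it averaged 79.7 ± 2.45 in GATA1 cells and 384 ± 69.2 in vector cells, and fell by 2.05 ± 0.17 (limma adjusted p = 3.67e-05). Ly75, the endocytic receptor DEC-205, fell at 42 h to 64.2 ± 18.0 in GATA1 cells, against 395 ± 89.5 in vector cells (-2.36 ± 0.25, limma adjusted p = 0.000133). Thbd, which encodes thrombomodulin, rose at 42 h by only 0.11 ± 0.03 near the array medians, at 9.42 in GATA1 and 7.49 in vector cells (limma adjusted p = 0.0239, lost in 7 of 19 other settings). Among other Siglecs and paired sialic acid receptors, 8 of 10 had a probe set and 0 passed the filter. Siglecf was thus the single gene of the Siglecs and paired receptors examined here that was above the filter.

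Of 13 tested adaptors and kinases of activating lectin signalling, 8 were lower and 1 was higher in GATA1 cells at 42 h. At that time 20.9% of all genes were called, and the median difference was -0.65 over the list and 0.00 over all genes. The list was chosen with earlier results known, so its count is a description. At 18 h 0 of 13 passed in limma, where 1.85% of all genes did, with medians of -0.19 and -0.01. Of these 13, 7 had an unadjusted p under 0.05 at 18 h, where 1056 of all 10759 genes did. Up to 2 of the 13 passed in other settings. Tyrobp, the adaptor DAP12, averaged 939.8 ± 219 in GATA1 and 1216 ± 257 in vector cells at 18 h, and 147 ± 48.5 in GATA1 and 1072 ± 80.1 in vector cells at 42 h. It fell by 2.78 ± 0.25 at 42 h (limma adjusted p = 5.03e-05). Fcer1g, the FcRγ adaptor with which Mincle and MCL pair, averaged 2195 ± 272 in GATA1 and 2586 ± 156 in vector cells at 18 h, and 766 ± 51.0 in GATA1 and 2281 ± 121 in vector cells at 42 h. It fell by 1.55 ± 0.09 at 42 h (limma adjusted p = 3.67e-06). Its difference at 18 h was -0.24 ± 0.09, which did not pass. Syk, the kinase itself, was at 1273 ± 346 in GATA1 and 1754 ± 199 in vector cells at 42 h, which did not pass (-0.49 ± 0.19, limma adjusted p = 0.110). Src, a tyrosine kinase, was the 1 that rose, by 1.88 ± 0.18 at 42 h (247 ± 14.5 in GATA1 and 56.3 ± 14.9 in vector cells, limma adjusted p = 6.77e-05).

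Phosphatases and adaptors of inhibitory receptors gave 0 higher and 1 lower of 11 tested at 18 h (median -0.17), and 1 higher and 4 lower at 42 h (median -0.38). At 18 h 1.85% and at 42 h 20.9% of all genes were called, with medians of -0.01 and 0.00. Ptpn22, which restrains Src-family signalling, fell by 0.74 ± 0.16 at 18 h (limma adjusted p = 0.0492, lost in 15 of 20 other settings, the replicate block among them) and fell by 1.76 ± 0.16 at 42 h (limma adjusted p = 4.56e-05). Ptprc, which encodes the leukocyte phosphatase CD45, averaged 7.04 ± 2.07 in GATA1 and 31.3 ± 3.39 in vector cells at 42 h (-1.04 ± 0.17, limma adjusted p = 0.00176). Ptpn11, which encodes SHP-2, rose by 0.63 ± 0.13 at 42 h, at 4987 ± 772 in GATA1 and 3194 ± 269.9 in vector cells (limma adjusted p = 0.00608).

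Inflammatory genes known as targets of these receptors gave 1 higher and 0 lower of 9 tested at 18 h (median -0.01), and 1 higher and 2 lower at 42 h (median 0.00). Among all genes 1.85% were called at 18 h and 20.9% at 42 h, so 3 of 9 at 42 h is near that share. Il1b, the cytokine interleukin-1β, rose at both times. It averaged 117 ± 38.5 in GATA1 and 15.2 ± 1.08 in vector cells at 18 h (2.05 ± 0.18, limma adjusted p = 0.00129), and 185 ± 34.3 in GATA1 and 14.6 ± 1.75 in vector cells at 42 h (2.70 ± 0.18, limma adjusted p = 8.68e-06). Nfatc2, a calcium-regulated transcription factor, fell by 1.28 ± 0.29 at 42 h, and Nfkbia, the NF-κB inhibitor IκBα, by 0.73 ± 0.17 (limma adjusted p 0.0119 and 0.0129, each lost in 1 of 20 other settings).

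Enzymes and transporters of sialic acid, the sugar that Siglecs bind, gave 1 higher and 0 lower of 19 tested at 18 h (median -0.04), and 5 higher and 5 lower at 42 h (median 0.00). The share of all genes called was 1.85% at 18 h and 20.9% at 42 h, with medians of -0.01 and 0.00. Cmas, which activates sialic acid, rose by 0.49 ± 0.09 at 18 h, at 4491 ± 263 in GATA1 and 3213 ± 397 in vector cells (limma adjusted p = 0.0326, lost in 10 of 20 other settings). The polysialyltransferase gene St8sia4 fell by 2.08 ± 0.36 at 42 h, at 9.41 ± 0.997 in GATA1 and 103 ± 67.4 in vector cells (limma adjusted p = 0.00288). The transporter gene Slc35a1 fell by 0.70 ± 0.11 (limma adjusted p = 0.00164). The sialyltransferase genes St3gal2 and St3gal4 rose by 1.92 ± 0.59 and 1.38 ± 0.36 at 42 h (limma adjusted p 0.0456 and 0.0234, lost in 10 of 19 and 5 of 20 other settings).

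Of the myeloid transcription factors, 1 of 9 tested rose and 0 fell at 18 h (median -0.07), and 0 rose and 4 fell at 42 h (median -0.51), where 1.85% and 20.9% of all genes were called, with medians of -0.01 and 0.00. Egr1, an immediate early factor, rose at 18 h, at 1669 ± 143 in GATA1 and 727 ± 122 in vector cells (1.19 ± 0.17, limma adjusted p = 0.00672), and differed by 0.03 ± 0.17 at 42 h. The 18 h call was lost without the arrays lettered A. Spi1, which encodes PU.1, averaged 234 ± 59.7 in GATA1 and 329.8 ± 47.1 in vector cells at 18 h (-0.49 ± 0.24, limma adjusted p = 0.601). At 42 h it fell to 101 ± 31.7 in GATA1 cells, against 315 ± 55.4 in vector cells (-1.53 ± 0.24, limma adjusted p = 0.00160). Gata2, which GATA1 replaces in maturing cells, fell to 623 ± 176 in GATA1 cells at 42 h, against 3208 ± 679 in vector cells (-2.36 ± 0.31, limma adjusted p = 0.000541). Its difference at 18 h was -0.19 ± 0.31.

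**Figure D4:**
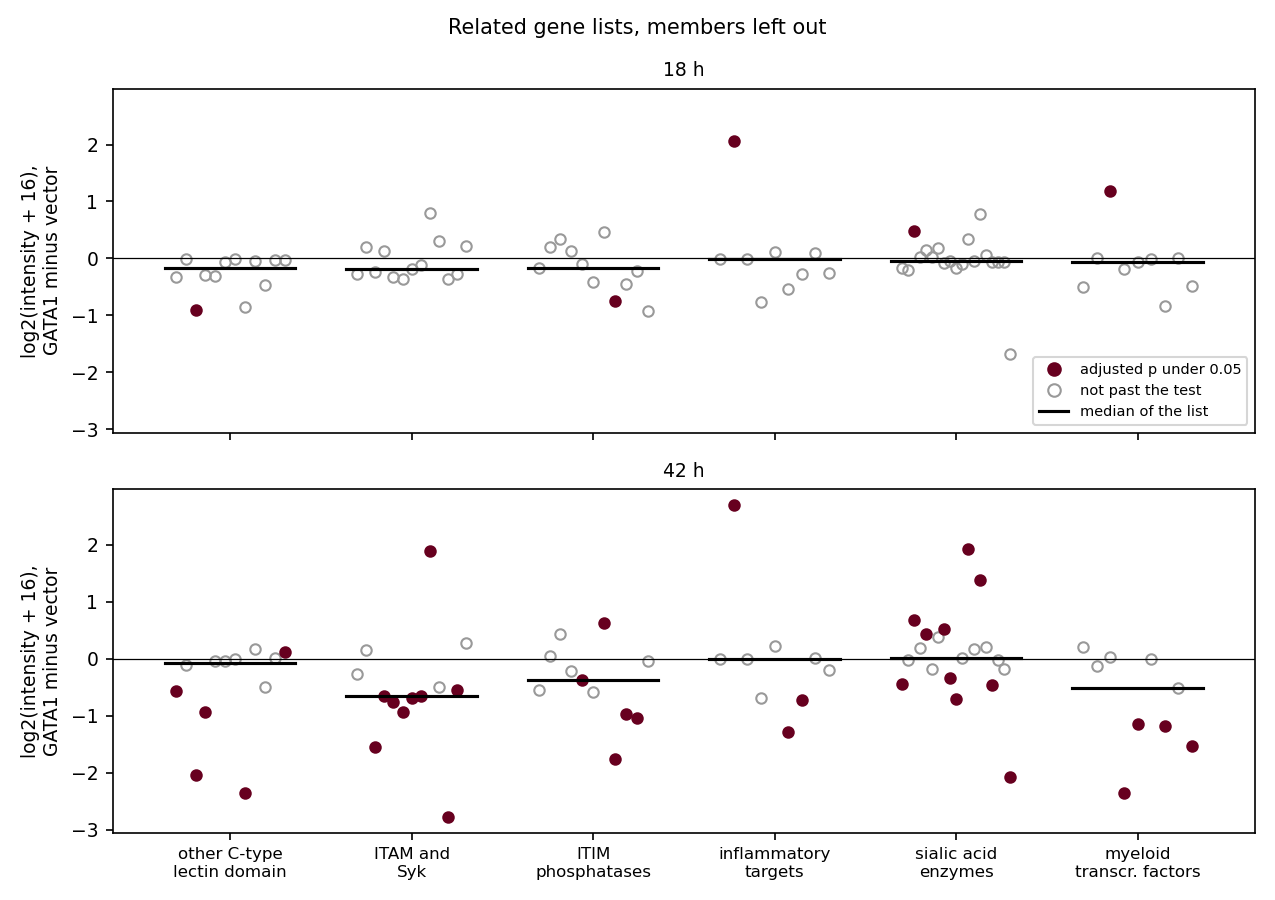
Difference between GATA1 and vector cells in log2(intensity + 16) for each tested gene of 6 related lists, at 18 h (top) and 42 h (bottom). Filled points have a limma adjusted p under 0.05, bars are list medians, and the lectin receptor genes themselves are left out.

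Markers of other cell types were read beside these results, as sums of intensity over each list and as counts called. Of all genes 1.85% were called at 18 h and 20.9% at 42 h. Mast cell and basophil markers, in effect Cpa3 and Kit, summed to 903 to 1005 in GATA1 and 1898 to 2477 in vector cells at 18 h, and to 116 to 147 in GATA1 and 1988 to 3359 in vector cells at 42 h, so they moved with Clec4e and Cd69. Of 3 tested mast cell and basophil markers, 1 was called lower at 18 h and 2 at 42 h. The defining markers Fcer1a, Ms4a2, Mcpt8, Cma1 and Tpsb2 (5 of 8) were at or below the array median on all arrays. Of the eosinophil markers Epx, Prg2, Prg3 and Ccr3 (4 of 5) were at or below it, with sums between 27.0 and 31.5 in all groups, and T and NK cell markers were so in 5 of 5. Monocyte and macrophage markers summed to 409 to 645 in GATA1 and 519 to 738 in vector cells at 18 h and to 336 to 411 in GATA1 and 485 to 707 in vector cells at 42 h, with Cd14 and Adgre1 at or below the median on all arrays. Of the 5 tested, 3 (Ccr2, Cd68 and Cx3cr1) were under a mean intensity of 16 in every group, where differences are understated. In limma 0 of the 5 were called at either time. At each time 1 of these 5 had an unadjusted p under 0.05, where 1056 and 3415 of all 10759 genes did. Of 10 neutrophil markers 7 were at or below the median on all arrays. Their sums were 95.6 to 155 in GATA1 and 101 to 177 in vector cells at 18 h. At 42 h they were 98.9 to 129 in GATA1 and 156 to 248 in vector cells. Of the 3 tested neutrophil markers, Csf3r was under a mean intensity of 16 in every group. None was called at 18 h, and 1 was higher and 1 lower at 42 h. Of the 6 dendritic cell markers with a probe set 1 was tested and was higher at 42 h. Erythroid markers summed to 2771 to 3759 in GATA1 and 247 to 515 in vector cells at 18 h, and to 15340 to 24018 in GATA1 and 290 to 378 in vector cells at 42 h. Megakaryocyte markers summed to 15453 to 20199 in GATA1 and 12093 to 15716 in vector cells at 18 h, and to 21802 to 25599 in GATA1 and 14257 to 14820 in vector cells at 42 h. Of 5 tested erythroid markers, 3 were called higher at 18 h and 5 at 42 h. Of 4 tested megakaryocyte markers, 0 were called at 18 h, and 2 were higher and 1 lower at 42 h. Fewer cells of a type and less RNA per cell cannot be told apart on these arrays, and the part of either in the lectin results was not tested. The 5′ control probe set for 18S ribosomal RNA read 8.32 to 12.4 (log2 scale) on the arrays lettered A, 5.53 to 10.6 on those lettered B and 4.79 to 6.75 on those lettered C. For the 3′ probe set these ranges were 7.87 to 9.75, 4.02 to 6.34 and 3.71 to 5.765. For the probe set labelled M they were 7.05 to 9.35, 4.42 to 6.91 and 3.45 to 5.42. In the 3′ and M probe sets every array lettered A was thus above every array lettered B or C. Without the arrays lettered A the Clec4e difference was -1.73 at 18 h and -3.74 at 42 h, and that of Siglecf 0.82 and -0.60. GATA1 42 h array A also stood apart in the log2 difference between 3′ and 5′ control probe sets. It was 0.796 for beta-actin (0.380 to 0.550 on the other arrays) and -0.113 for Gapdh (-0.496 to -0.259). Without this array the 42 h differences were -3.77 for Clec4e, -0.84 for Clec4d, -2.29 for Cd69 and -0.72 for Siglecf.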

How the data were processed

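The members and all gene lists were chosen with earlier results of these data known. The deposited values are linear intensity values of 45101 Affymetrix probe sets on 12 arrays. Per the submitters' processing notes GCRMA and MAS5 were used, and their roles, versions and the background correction are not given in the sources used here. No further normalization was applied. The platform annotation gave 34945 probe sets 1 symbol, 932 several and 9160 none; 64 control probe sets were left out. The brightest probe set stood for a gene and was tested where at least 3 of its values lay above the median of their array. A linear model of log2(intensity + 16) in 4 groups was fitted with limma 3.58.1 (R 4.3.3), two-sided, with Benjamini-Hochberg adjustment over 10759 genes, tested on simulated data. Differences of dim genes are understated, and 3 arrays per group limit the precision. Named genes of each list are the at most 2 rising and 2 falling most among those past the threshold; neighbours are the 3 nearest tested genes on each side.

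Deviations from the group means were compared between arrays. For the same letter r was 0.657, 0.312 and 0.654 at 18 h and 0.605, 0.246 and 0.330 at 42 h. Over time in vector cells it was 0.540, 0.378 and 0.357. For different letters r was at most 0.0814 at 18 h and 0.126 over time in vector cells, so the letters pair those groups. At 42 h vector B with GATA1 C reached 0.393, above the matched B and C pairs, so pairing by letter is not clear there. With the letter as a replicate block 358 genes were called at 18 h, where 199 were called without it, and 41 over time in vector cells, where 2 were. In GATA1 cells over time r was 0.567, 0.0506 and 0.612. Promoter sequences are from RefSeq, build GRCm38.p6, and served with the gene order as the only reference.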

Additional observations from a re-analysis of the deposited data

Results flagged for a closer look

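Siglecf was separated between GATA1 and vector arrays in opposite directions at 18 h and 42 h, and the difference of the effects was -1.65. No test of that difference is given, because the gene was chosen with it known. In 10 of the 73 tested genes of the related lists the GATA1 effect differed between the times, where 4.66% of all genes did. The test was limma's test of the difference itself, 42 h minus 18 h. These lists were chosen with earlier results of these data known, so the count is a description. Lower at 42 h relative to 18 h were Tyrobp (-2.41, adjusted p = 0.00497), Gata2 (-2.17, 0.0228), Ly75 (-1.50, 0.0427), Fcer1g (-1.31, 0.000491), Egr1 (-1.17, 0.0237), Cd93 (-1.15, 0.0308), Ptpn22 (-1.02, 0.0311) and the adaptor gene Hcst (-0.78, 0.00304), where the second value is the limma adjusted p. Src (1.08, adjusted p in limma = 0.0424) and the sialidase gene Neu3 (0.59, adjusted p in limma = 0.0369) differed in the other direction. Hcst and Neu3 are named here after their values were seen. Causes were not tested.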

How the results depend on the processing

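Counts of genes past the threshold moved with the setting. For GATA1 against vector at 18 h the 199 genes became 119 with no filter, 358 with the replicate block, 54 when the fit held just the 6 arrays of 18 h, 34 with letter A dropped, and 101 to 200.0 when single arrays were left out (101 and 120.0 without GATA1 18 h A and B, 117 and 116 without vector 18 h A and B). The 501 genes of the difference between times became 319 with no filter, 846 with the block and 259 without the letter A, and 323 (without GATA1 18 h B or C) to 536 when single arrays were left out. Over time in vector cells the 2 genes became 4 with a pseudocount of 4, 1 with a filter above 100, 41 with the block, 5 with quantile normalization and 0 with only the arrays compared or without the letter A, and 1 to 3 when single arrays were left out. The 2251 genes at 42 h ranged from 1689 to 2218 and the 1574 over time in GATA1 cells from 1057 to 1598 when single arrays were left out.

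The alternatives for the related lists were chosen after seeing the data. At 18 h, the 1 other C-type lectin gene became 0 with no filter, only the arrays compared or no letter A, and 2 with the block. The 0 signalling genes became 1 with a pseudocount of 64, a filter above 100 or quantile normalization, and 2 with the block. The 1 inhibitory gene became 0 with a pseudocount of 4, no filter, only the arrays compared or no letter A, and 3 with the block. The 1 inflammatory gene became 2 with no filter. The 1 sialic acid gene became 2 with a pseudocount of 4 or quantile normalization, 3 with the block and 0 with no filter, only the arrays compared or no letter A. The 1 transcription factor became 2 with the block and 0 without the letter A. At 42 h the 5 other C-type lectin genes became 3 with a pseudocount of 64, a filter above 100 or no letter A. The 10 sialic acid genes became 6 with no filter or only the arrays compared. The 4 transcription factors became 2 with a filter above 100. When single arrays were left out the 18 h counts were 0 to 1 for C-type lectin and signalling genes and 0 to 2 for inhibitory and sialic acid genes. The 42 h counts were then 3 to 5 for C-type lectin genes and 6 to 11 for sialic acid genes. The causes were not tested.

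No direction of a lectin gene past the threshold changed in any setting. The Clec4e difference depended on the pseudocount, at -2.33 (pseudocount 4) and -1.43 (64) at 18 h, and -4.87 and -2.30 at 42 h, since its GATA1 42 h values lie at the low end. Without GATA1 18 h array A it was -1.74 at 18 h. With the block no call of a lectin gene over time in vector cells changed.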
